A study of Mus musculus with 3 samples.

Results

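Distant alternative 3' splice sites are pairs of acceptor sites of 1 exon that lie more than 12 nt apart, so that the long form of the exon carries an extension that the short form lacks. They were taken from the alternative 3' splice site (A3SS) tables of the series by length alone, as the A3SS events whose long exon exceeds the short exon by more than 12 nt. This gave 504 of 942 A3SS events, in 415 genes, out of 8727 splicing events of 5 types. The other 438 A3SS events have sites that lie 12 nt apart or less and are called tandem events here. No measured value chose the events. Next to the limit of 12 nt, 19 tandem events had an extension of 12 nt, and 3 distant events had one of 13 nt, 3 of 14 nt and 18 of 15 nt.

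The study asked whether a polyamide that binds CAG and CTG repeat DNA changes alternative splicing in the brain of mice that express expanded CUG repeats, the RNA of myotonic dystrophy type 1 (DM1). RNA-Seq was done on the hippocampus of 3 wild-type C57BL/6J mice, 1 in each group, all 10 weeks old by the labels. All of them were injected in the CA1 field of both hemispheres with an adeno-associated virus (AAV9) whose Egfp transcript carries the repeat in its 3' untranslated region (UTR). The CUG10 + vehicle mouse received the vector with 10 repeats, the CUG300 + vehicle mouse the vector with 300 repeats, and the CUG300 + CWG-cPIP mouse the vector with 300 repeats and the cyclic pyrrole-imidazole polyamide CWG-cPIP, which was mixed with the virus. The repeat is therefore present only in cells that the virus reached, while RNA was taken from the hippocampus as a whole. Since each group is 1 mouse, differences below could not be checked against replicates, and the exact tests compare reads of single libraries rather than conditions.

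An intron ends in a pyrimidine-rich tract and an AG dinucleotide, which are read by the U2AF factors before the spliceosome cuts. Where a second AG lies within the exon or the intron before it, the choice between the sites adds or removes a stretch of RNA, which can insert amino acids, shift the reading frame or change the C-terminus or the UTR of the transcript. Proteins of the MBNL and CELF families, which DM1 repeats sequester or mis-regulate, bind RNA near such sites, with MBNL proteins preferring words of the form YGCY, where Y is C or U.

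The sites of the events that the results turn on are shown first, read from GENCODE M21 transcripts on build mm10. Each line gives 20 bases before the cut and the first 3 bases after it, 5' to 3' on the strand of the gene, with the AG of the acceptor in capitals. The downstream site opens the short form and the upstream site opens the long form. The intron before an upstream site could be read only where another annotated exon covers it, so most lines show the downstream site alone.
Rnpc3 upstream, chr3:113607297-113607319: attctgctgttcttctttAGaag
Rnpc3 downstream, chr3:113605645-113605667: gggcctttgtggtgttttAGgtt
Serbp1 upstream, chr6:67272799-67272821: tttcttctttctttccttAGaga
Serbp1 downstream, chr6:67272844-67272866: caaatatcttataattgcAGtga
Dnm1 upstream, chr2:32309635-32309657: acccttctgcttttccccAGcag
Dnm1 downstream, chr2:32309062-32309084: gctttctctccaactgccAGccg
Cops2 upstream, chr2:125842730-125842752: tttgctgtttacaattatAGaat
Cops2 downstream, chr2:125842709-125842731: attctgattttttatgtcAGatg
Prpf19 downstream, chr19:10898963-10898985: agtggcctaccctctcccAGgat
Iqsec1 downstream, chr6:90661023-90661045: ccacgggctgtactttacAGttt
Vegfb downstream, chr19:6985493-6985515: catcatccatcccactccAGccc
Grin1 downstream, chr2:25292126-25292148: tgtgtatttctattttacAGcag
Enah downstream, chr1:181921766-181921788: tctcccttctccctctgcAGctg
Tmem14a downstream, chr1:21229571-21229593: ttcctcttcctgtgactcAGcct
Nrxn2 downstream, chr19:6531824-6531846: tttcccccgtctgcccacAGcca

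Among these sites the pyrimidine share of the 20 bases before the cut was 90% at the upstream site of Serbp1 and 50% at its downstream site. In Rnpc3 it was 75% upstream and 55% downstream, and in Dnm1 80% and 70%. The downstream site of Enah had 85%. Over 411 extensions of at least 20 nt, the 20 bases before the downstream site had a median pyrimidine share of 65% (quartiles 60 to 70), against 45% in the 20 bases that follow the site. The cut followed an AG in 408 of the 411 (99.3%), with C before the AG in 305 (74.2%), T in 63 (15.3%), A in 36 (8.76%) and G in 4 (0.973%). In the 142 extensions for which both sites could be read, C preceded the AG at 106 downstream sites (74.6%) and 82 upstream sites (57.7%), and T at 19 (13.4%) and 38 (26.8%). The median pyrimidine share of both was 65%.

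YGCY words (the word TGCT, the word TGCC, the word CGCT or the word CGCC), searched on the strand of the gene and allowed to overlap, were found in 30.7% of the 411 windows before a downstream site and in 22.6% of the windows of the same length after it. Before the upstream site they were found in 29.2% of 161 windows. Among the 48 extensions of at least 20 nt whose use differed by more than 0.15 between any 2 libraries, 10 windows (20.8%) held such a word, against 32 of the 120 extensions (26.7%) that reached 20 counts in all 3 libraries. Of the sites printed above, both Dnm1 sites, the upstream sites of Rnpc3 and Cops2, and the downstream site of Nrxn2 hold one.

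The extensions were 13 to 3075 nt long, with a median of 64 nt (quartiles 32.75 to 133). Of the 504, 208 (41.3%) were 50 nt or shorter, 85 (16.9%) exceeded 250 nt and 26 exceeded 1000 nt. The 504 events hold 474 distinct extensions, since 28 extensions are joined to more than 1 upstream exon, and 65 genes have at least 2 events. Events of 1 gene therefore share reads and were not treated as independent.

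**Figure D1:**
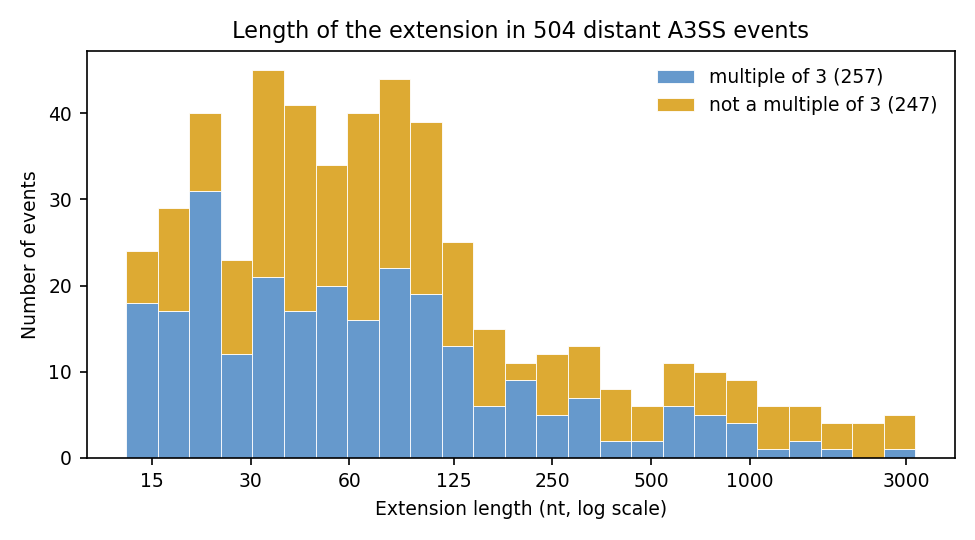
Number of distant A3SS events by extension length in nt, on a log axis. Blue marks the 257 extensions whose length is a multiple of 3 and yellow the other 247, and the yellow share is larger among long extensions.

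By the GENCODE annotation, 321 extensions lay in coding sequence, 94 in a 5'UTR, 14 in a 3'UTR, 35 in transcripts marked for nonsense-mediated decay (NMD) and 17 in noncoding transcripts. For 23 the long form was not annotated, and both sites were annotated for 463. The length was a multiple of 3 in 207 of 321 coding extensions (64.5%) and in 28 of 94 5'UTR extensions (29.8%). In coding sequence this share was 73.9% for 13 to 50 nt, 62.1% for 51 to 250 nt and 45.1% above 250 nt, and it was 88.3% in the 342 coding tandem events. A stop codon of an annotated transcript lay inside 76 extensions, against 1 of 438 in tandem events. Of the extensions above 250 nt, 48 of 85 (56.5%) lay in the last exon of at least 1 annotated transcript, against 36 of 208 (17.3%) of those of 50 nt or less. This need not be the last exon of the gene, since some 5'UTR extensions are among them.

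Use of the long form is given as percent spliced in (PSI), a fraction from 0 to 1. It is the share of reads for the long form after the inclusion count is divided by the length of the long form and the skipping count by that of the short form. Inclusion counts hold reads on the upstream junction and reads within the extension, while skipping counts come only from the junction of the short form. Distant events had 26479 counts in CUG10 + vehicle, 19710 in CUG300 + vehicle and 27696 in CUG300 + CWG-cPIP, and the median event had 16, 11 and 17 counts. At least 20 counts in each library were reached by 139 events in 115 genes, and the other 365 events stayed under this depth in at least 1 library. Each PSI below has a 95% Clopper-Pearson interval, each difference a 95% Newcombe interval, and both cover counting error only.

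The CUG300 + vehicle library stood apart in its cell type markers, measured as the summed counts of marker genes at splicing events, scaled to the library total (counts per 1000000, CPM). Neuron markers summed to 12832 CPM in CUG10 + vehicle, 4485 in CUG300 + vehicle and 13066 in CUG300 + CWG-cPIP, with 9 of 9 measured genes lower in CUG300 + vehicle than in CUG10 + vehicle. Microglia and immune markers summed to 3488, 31631 and 7036 CPM, with 11 of 11 genes higher. Choroid plexus and ependyma markers summed to 796, 71334 and 735 CPM, with 4 of 4 higher, led by Ttr. None of the measured markers was at 0 in any library, and the part of cell composition in the differences below was not tested. In whole tissue a change in the cells present and a change of splicing within cells cannot be told apart. The pair that leaves out this library is CUG300 + CWG-cPIP against CUG10 + vehicle.

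Among events with 20 counts in each library, the long form was the main form of a majority in every library. In the 139 events at this depth the median PSI was 0.710 in CUG10 + vehicle, 0.656 in CUG300 + vehicle and 0.723 in CUG300 + CWG-cPIP. PSI was above 0.5 in 84 (60.4%), 79 (56.8%) and 92 (66.2%) of them, and 68, 72 and 74 events used both forms at a PSI between 0.1 and 0.9. The 59 tandem events of the same depth had medians of 0.750, 0.808 and 0.828. At 10 counts in each library, 55.1%, 53.7% and 57.9% of 216 distant events had a PSI above 0.5, which is closer to an even split. Long extensions were more common at 20 counts, with 49 of the 139 events above 250 nt against 85 of all 504.

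Among annotation classes, over 102 events, coding extensions had a median PSI of 0.815 in CUG10 + vehicle, 0.774 in CUG300 + vehicle and 0.804 in CUG300 + CWG-cPIP. Below, values given as 3 numbers follow this order of libraries. The 15 extensions in a 5'UTR had 0.203, 0.174 and 0.194, and the 5 in NMD transcripts 0.0656, 0.0532 and 0.0337. At this depth, extensions in a 5'UTR or an NMD transcript were thus mostly skipped in all 3 mice, while coding ones were mostly included. These are 15 of 94 5'UTR and 5 of 35 NMD extensions, and 5 of the 15 had a PSI above 0.5 in each library. By length, the 43 extensions of 13 to 50 nt had medians of 0.487, 0.376 and 0.565, and the 28 of 51 to 100 nt had 0.865, 0.885 and 0.851. The 19 above 100 and up to 250 nt had 0.878, 0.875 and 0.853, the 32 above 250 and up to 1000 nt had 0.761, 0.740 and 0.788, and the 17 above 1000 nt had 0.686, 0.635 and 0.688. PSI thus followed no steady order with length, and over 120 extensions of at least 20 nt, which share libraries, Spearman's rho of log10 length and PSI was 0.12, 0.14 and 0.09. The medians also moved with the count minimum. At 10 counts in each library they were 0.471, 0.547 and 0.448 in 31 events above 100 and up to 250 nt, and 0.481, 0.393 and 0.498 in 76 events of 13 to 50 nt.

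**Figure D2:**
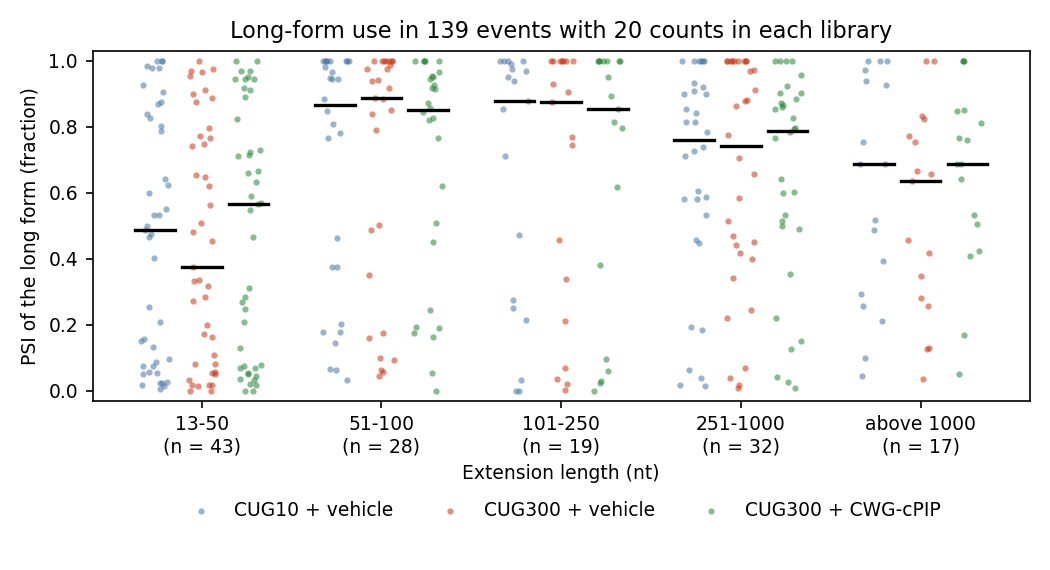
PSI of the long form (fraction) in 139 distant A3SS events that reached 20 counts in all 3 libraries, by extension length in nt. Points are events in 1 mouse and black bars are medians, which for 13 to 50 nt are 0.487, 0.376 and 0.565, below the other classes at this depth. At a minimum of 10 counts the class above 100 and up to 250 nt is lower in CUG10 + vehicle and CUG300 + CWG-cPIP (0.471 and 0.448, against 0.481 and 0.498).

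PSI was also set beside the pyrimidine share of the downstream site. Over the 120 extensions of at least 20 nt at this depth, those with a pyrimidine share of 75% or more before the downstream site had a median PSI of 0.487, 0.495 and 0.569 (30 extensions). Those below 60% had 0.852, 0.771 and 0.845 (35 extensions), and those from 60% to under 75% had 0.801, 0.833 and 0.810 (55 extensions). In CUG300 + vehicle the middle class was thus the highest. Across the 120 extensions, which share libraries and base composition, the correlation of pyrimidine share and PSI was weak, with Spearman's rho of -0.21, -0.15 and -0.22.

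The first comparison, CUG300 + vehicle against CUG10 + vehicle, asked which sites differ when the expanded repeat is expressed. No distant event passed Fisher's exact test with Benjamini-Hochberg adjustment over the 750 A3SS events of this pair together with a PSI difference above 0.15. Over all A3SS events 0.267% passed. Without adjustment 16 of 402 listed distant events had an exact p below 0.05, which is 3.98%, against 3.33% over all A3SS events, and 9 of these also passed the size threshold (2.24%, against 2.27%). By size alone, 19 of 133 events with 20 counts in both libraries (14.3%) differed by more than 0.15, 5 higher and 14 lower in CUG300 + vehicle. The background over all 2526 events of the 5 types was 9.34% (3.01% higher and 6.33% lower), and in 64 tandem events it was 9.38%. Of the 19, 10 rested on fewer than 10 skipping counts over both libraries, and 4 had an interval that does not include 0 (3.01% of the distant events, against 2.93% over all types).

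The second comparison, CUG300 + CWG-cPIP against CUG300 + vehicle, asked which sites differ with the compound. Rnpc3 was the 1 distant event of 412 listed that passed the exact test and the size threshold. It was also the only call among all 768 A3SS events of the pair (0.13%), so that share is no separate background. Without adjustment 25 (6.07%) had an exact p below 0.05, against 5.08% over all A3SS events, and 18 of them were past the size threshold (4.37%, against 3.91%). By size alone 30 of 137 events (21.9%) differed, 20 higher and 10 lower with CWG-cPIP, beside 11.3% over 2514 events of all types (7.92% higher and 3.38% lower) and 15.8% in 57 tandem events. The interval left out 0 in 14 of the 30, which is 10.2% of the distant events and 4.22% over all types, and 14 of the 30 had fewer than 10 skipping counts.

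The third comparison, CUG300 + CWG-cPIP against CUG10 + vehicle, set the treated mouse beside the mouse without the expansion. Iqsec1 and Prpf19 passed the exact test and the size threshold, 2 of 446 listed. They were also the only 2 calls among all 844 A3SS events of the pair (0.237%), so that share is no separate background. Without adjustment 21 (4.71%) had an exact p below 0.05, against 3.55% over all A3SS events, and 13 of them were past the size threshold (2.91%, against 2.49%). By size alone 36 of 186 events (19.4%) differed, 19 higher and 17 lower, beside 8.56% over 3096 events of all types (4.78% higher and 3.78% lower) and 8.51% in 94 tandem events. The interval left out 0 in 12 of the 36 (6.45% of the distant events, against 2.42% over all types), and 15 had fewer than 10 skipping counts. Any 2 of the 3 comparisons share a library, so their values are given side by side and were not correlated.

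In each pair the share of differences above 0.15 was highest among the longest extensions, where the intervals were also wide. Above 1000 nt it was 35.3% of 17 events between CUG300 + vehicle and CUG10 + vehicle, 43.8% of 16 between CUG300 + CWG-cPIP and CUG300 + vehicle, and 44.4% of 18 between CUG300 + CWG-cPIP and CUG10 + vehicle. For 13 to 50 nt it was 10.9%, 10.9% and 14.1%. The median width of the interval was 0.381, 0.449 and 0.393 above 1000 nt and 0.272, 0.287 and 0.319 for 13 to 50 nt. The median event had 9, 4 and 8 skipping counts in the 3 libraries above 1000 nt, and 2, 2 and 4 in the class above 100 and up to 250 nt.

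**Figure D3:**
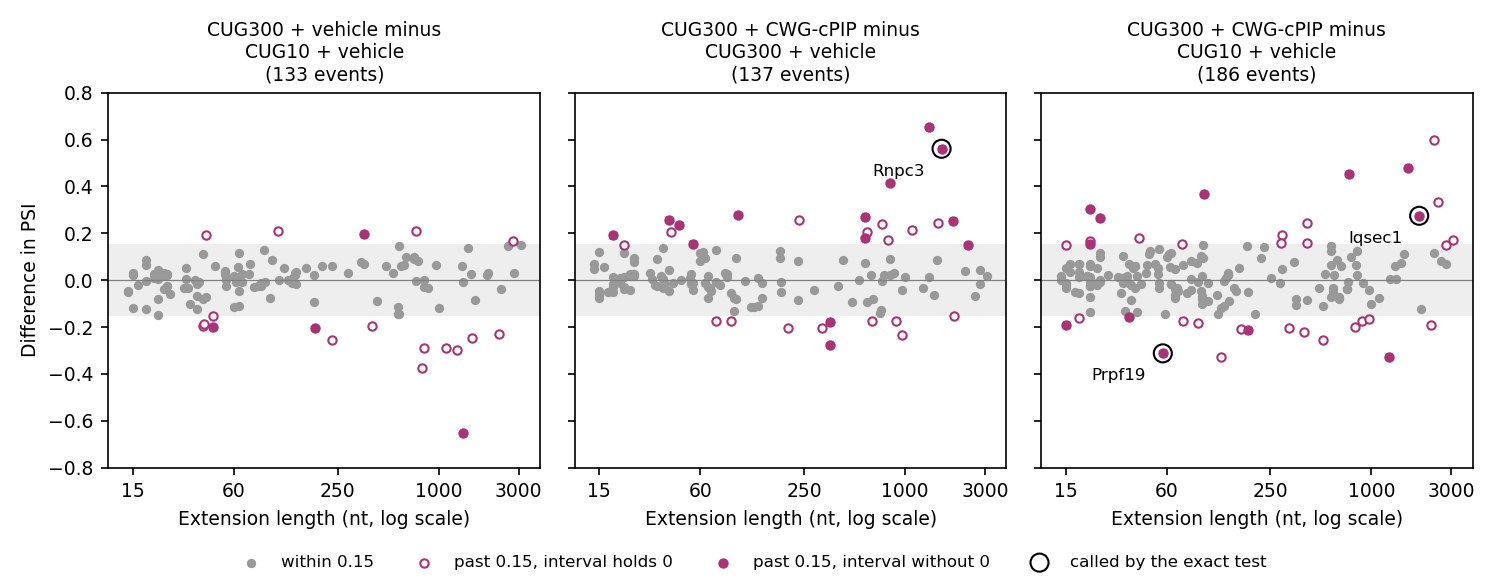
Difference in PSI against extension length in nt (log axis) for distant A3SS events that reached 20 counts in both libraries of a pair, 133, 137 and 186 events from left to right. The grey band spans 0.15 on each side of 0, filled red points have an interval without 0, and circles mark Rnpc3, Prpf19 and Iqsec1, the events called by the exact test.

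Rnpc3 encodes a protein of the minor spliceosome that contacts the U12 small nuclear RNA, and its 1652-nt extension lies in the 3'UTR of the last exon (chr3:113605648-113607299). The extension had 62 inclusion and 10 skipping counts in CUG10 + vehicle, 34 and 10 in CUG300 + vehicle, and 103 and 2 in CUG300 + CWG-cPIP. This gave a PSI of 0.21 (0.119 to 0.368), 0.127 (0.066 to 0.249) and 0.688 (0.373 to 0.949), so both vehicle libraries were low and the treated one was high.

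The Rnpc3 difference between CUG300 + CWG-cPIP and CUG300 + vehicle was 0.561 (0.232 to 0.772), with an adjusted exact p of 0.0348 (Fisher's exact test, two-sided, Benjamini-Hochberg). Against CUG10 + vehicle it was 0.478 (0.139 to 0.699), with an adjusted exact p of 0.363. Only 2 skipping counts underlie the treated value.

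Prpf19 encodes a ubiquitin ligase that is a core component of the spliceosome. Its 57-nt coding extension (chr19:10898926-10898982), a multiple of 3, had a PSI of 0.473 (0.339 to 0.617) in CUG10 + vehicle, 0.311 (0.134 to 0.56) in CUG300 + vehicle and 0.161 (0.096 to 0.25) in CUG300 + CWG-cPIP. The intervals of CUG10 + vehicle and CUG300 + CWG-cPIP did not overlap, and CUG300 + vehicle, with 18 counts, lay between them. The difference between CUG300 + CWG-cPIP and CUG10 + vehicle was -0.312 (-0.455 to -0.16), with an adjusted exact p of 0.0168.

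Eif4a2, an RNA helicase of translation initiation, passed the exact test with a small difference. Its 816-nt extension holds a stop codon and had 97, 87 and 141 inclusion and 436, 405 and 280 skipping counts in the 3 libraries. PSI was 0.018 (0.014 to 0.023), 0.018 (0.014 to 0.022) and 0.04 (0.033 to 0.049). The short form dominated in all 3 mice, and the long form was higher by 0.023 with CWG-cPIP than in CUG300 + vehicle (adjusted exact p 3.39e-05) and by 0.022 than in CUG10 + vehicle (adjusted exact p 6.42e-05).

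Serbp1, an mRNA-binding protein found on ribosomes, has 2 in-frame coding extensions of 45 nt and 18 nt on neighbouring exons. The 45-nt extension had a PSI of 0.532 (0.434 to 0.631) in CUG10 + vehicle, 0.331 (0.245 to 0.43) in CUG300 + vehicle and 0.565 (0.473 to 0.656) in CUG300 + CWG-cPIP. CUG300 + vehicle was the low library, with an interval apart from both others. The differences were -0.201 (-0.324 to -0.068) against CUG10 + vehicle and 0.234 (0.105 to 0.352) for CWG-cPIP against CUG300 + vehicle, with adjusted exact p of 0.684 and 0.0885. The 18-nt extension had 0.498, 0.376 and 0.569, with the same order of libraries. As the upstream site of the 45-nt extension has the richer pyrimidine tract of the pair shown above, the weaker tract opens the short form.

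The list of 100 RNA-binding splicing regulators had 20 genes with 23 listed events between CUG300 + CWG-cPIP and CUG300 + vehicle. Of the 15 with 20 counts in both libraries, 4 were higher (Rnpc3, Celf2, Hnrnpc and Snrnp70) and 1 was lower (Sf1) by more than 0.15, and only Rnpc3 passed the exact test. The list's median absolute difference was 0.0767, against 0.0632 over all distant events of the pair. Between CUG300 + vehicle and CUG10 + vehicle, 0 were higher and 2 lower (Celf2 and Qk) of 14, and between CUG300 + CWG-cPIP and CUG10 + vehicle 4 were higher and 1 lower of 16. Over all distant events the shares past 0.15 were 21.9%, 14.3% and 19.4% in these 3 pairs. Hnrnpc, Sf1, Qk and Pcbp2 were named after their values were seen.

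Celf2, a CELF family splicing regulator, had a 1104-nt 3'UTR extension at a PSI of 0.927 (0.691 to 0.998), 0.635 (0.398 to 0.867) and 0.85 (0.658 to 0.965), on 1, 4 and 3 skipping counts. CUG300 + vehicle was lowest, but the difference of -0.291 from CUG10 + vehicle had an interval from -0.534 to 0.009. Celf1, its relative, had the longest extension of all (3075 nt, 3'UTR), at 0.517, 0.666 and 0.686 on 10, 5 and 6 skipping counts, with all intervals overlapping.

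Snrnp70, the U1 snRNP protein, had a 2366-nt extension in a noncoding transcript at 0.293, 0.257 and 0.409, and the difference of 0.152 (0.023 to 0.273) with CWG-cPIP from CUG300 + vehicle left out 0. Qk, the quaking RNA-binding protein of glia, had a 1280-nt extension with a stop codon at 0.752 (0.451 to 0.962), 0.456 (0.212 to 0.808) and 0.423 (0.302 to 0.571). Hnrnpa3, a heterogeneous nuclear ribonucleoprotein, had a 2603-nt 3'UTR extension at 0.686, 0.833 and 0.767, with no difference above 0.15. Short extensions of Hnrnpc (21 nt, 0.466, 0.481 and 0.633) and Pcbp2 (24 nt in the 5'UTR, 0.472, 0.576 and 0.737) were both highest with CWG-cPIP. The Hnrnpc differences had intervals that include 0, and that of Pcbp2 from CUG10 + vehicle ran from 0.002 to 0.487.

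At the synapse, Grin1, the obligatory subunit of NMDA receptors, had a 356-nt extension in its last exon (chr2:25292129-25292484). The extension carries the stop codon of the long form, so that the choice of site sets the end of the cytoplasmic tail. It was joined either to the exon at chr2:25295792-25295937 or to the exon at chr2:25294438-25294548. The inclusion counts of both events come largely from the same reads within the extension.

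Joined to the first of these exons, the extension had 38, 9 and 41 skipping counts in the 3 libraries. PSI was 0.58 (0.496 to 0.666), 0.776 (0.641 to 0.885) and 0.5 (0.417 to 0.588), so CUG300 + vehicle was the high library. The difference was 0.196 (0.04 to 0.321) for CUG300 + vehicle against CUG10 + vehicle and -0.276 (-0.401 to -0.119) for CWG-cPIP against CUG300 + vehicle, with adjusted exact p of 1.0 and 0.0885. Joined to the second exon, PSI was 0.9, 0.971 and 0.793 on 6, 1 and 11 skipping counts, in the same order. Grin1 is itself a neuron marker, with 2046, 1022 and 1900 CPM in the 3 libraries.

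Neurexins are presynaptic adhesion proteins. Nrxn2 had a 576-nt in-frame coding extension at 0.726 (0.604 to 0.834), 0.584 (0.381 to 0.798) and 0.853 (0.724 to 0.941). It was highest with CWG-cPIP, by 0.269 (0.052 to 0.482) over CUG300 + vehicle, with an adjusted exact p of 0.727. Nrxn3 had a 321-nt extension with 0, 0 and 3 skipping counts, which gave 1.0, 1.0 and 0.797 (0.563 to 0.951), and the intervals of both differences include 0.

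Iqsec1, an exchange factor for the small GTPase ARF6 at excitatory synapses, had a 1930-nt extension with a stop codon in its last exon (chr6:90661026-90662955). It had 377, 127 and 587 inclusion and 40, 12 and 19 skipping counts. PSI was 0.258 (0.201 to 0.331) in CUG10 + vehicle, 0.281 (0.178 to 0.437) in CUG300 + vehicle and 0.533 (0.42 to 0.656) in CUG300 + CWG-cPIP. Both vehicle libraries were alike within their intervals and the treated library was higher. The difference from CUG10 + vehicle was 0.275 (0.144 to 0.398) with an adjusted exact p of 0.00743, and from CUG300 + vehicle 0.252 (0.079 to 0.401) with an adjusted exact p of 0.53.

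Other postsynaptic genes differed less. Baiap2, the scaffold IRSp53, had a 120-nt extension at 0.878, 0.928 and 0.814, and Anks1b, a postsynaptic scaffold, had a 2798-nt extension at 0.098, 0.128 and 0.17. All their differences stayed under 0.15. In the list of 47 glutamate receptor, adhesion and postsynaptic genes, 1 of 4 events at depth was higher in CUG300 + vehicle than in CUG10 + vehicle, 1 was higher and 3 were lower of 5 with CWG-cPIP against CUG300 + vehicle, and none was higher and 1 lower of 5 with CWG-cPIP against CUG10 + vehicle. Of the 3 lower ones, 2 are the Grin1 events, which share reads. The shares past 0.15 in either direction were 14.3%, 21.9% and 19.4% over all distant events of these pairs and 9.34%, 11.3% and 8.56% over all types. None of the list's events passed the exact test. The DM1 and MBNL list of 39 genes had events of 2 genes only, Grin1 and Ank3. Ank3, the ankyrin of the axon initial segment, used its 588-nt extension little, at 0.122, 0.087 and 0.069.

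In endocytosis and vesicle cycling, Dnm1, the neuronal dynamin that cuts vesicles from the membrane, had a well-covered event. Its 573-nt extension carries a stop codon in the last exon and had 66, 35 and 38 skipping counts. PSI was 0.533 (0.469 to 0.599) in CUG10 + vehicle, 0.417 (0.333 to 0.513) in CUG300 + vehicle and 0.599 (0.517 to 0.681) in CUG300 + CWG-cPIP. CUG300 + vehicle was lowest, by -0.116 (-0.219 to -0.007) against CUG10 + vehicle, and CWG-cPIP lay 0.182 (0.062 to 0.294) above it, with an adjusted exact p of 0.31. The same extension is also joined to another upstream exon, and this event shares its reads within the extension. There PSI was 0.586 (0.517 to 0.657), 0.442 (0.352 to 0.545) and 0.514 (0.443 to 0.589), on 53, 31 and 53 skipping counts. CUG300 + vehicle was again lowest, but CUG10 + vehicle was highest, and the difference of CWG-cPIP from CUG300 + vehicle was 0.072 (-0.045 to 0.185).

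Picalm and Snap91 encode related clathrin adaptor proteins, and each has an in-frame 15-nt coding extension. They are shown whole, with the first 3 bases of the shared exon, because the 2 genes are paralogs. Snap91 was added after its values were seen.
Picalm extension, chr7:90191141-90191158: gctttgatgaactAGgtg
Snap91 extension, chr9:86781702-86781719: tgtttgatggtttAGgcg
Counted from the 5' end without gaps, 10 of 15 positions are identical, with an unbroken run of 7 from position 3 to position 9. Picalm used the extension at 0.402 (0.264 to 0.554), 0.283 (0.136 to 0.477) and 0.209 (0.115 to 0.334). The difference of CWG-cPIP from CUG10 + vehicle was -0.193 (-0.357 to -0.02), with an adjusted exact p of 1.0. Snap91 used it at 0.403 (0.23 to 0.6), 0.217 (0.005 to 0.775, on 4 counts) and 0.392 (0.266 to 0.531), a level in CUG10 + vehicle close to that of Picalm.

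Syn1, a vesicle phosphoprotein, had a 38-nt extension at 0.452, 0.452 and 0.505, with 9 counts in CUG300 + vehicle. Snx27, a sorting protein of endosomes, had a 794-nt extension at 0.841, 0.468 and 0.642 on 1, 3 and 5 skipping counts, with overlapping intervals. In the list of 38 vesicle genes, none of 3 events at depth was past 0.15 in the first comparison. Dnm1 was past it in the second (1 of 3) and Picalm in the third (1 of 5). Over all distant events the shares past 0.15 were 14.3%, 21.9% and 19.4%, so these few events do not set the list apart. In the ion channel list no distant event had 20 counts in both libraries of a pair.

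Among genes of the cytoskeleton and of signalling, Enah, an actin regulator of the Ena/VASP family, had a 732-nt in-frame extension at 0.447 (0.243 to 0.723), 0.658 (0.237 to 0.988) and 0.901 (0.615 to 0.997), on 5, 1 and 1 skipping counts. The treated library was 0.454 (0.094 to 0.668) above CUG10 + vehicle, with an adjusted exact p of 0.968. Vegfb, a growth factor of the VEGF family, has a coding extension whose frameshift gives the soluble isoform in place of the heparin-binding one. Its PSI was 0.249 (0.153 to 0.376), 0.337 (0.167 to 0.567) and 0.616 (0.44 to 0.783). The treated library was highest, by 0.367 (0.162 to 0.537) over CUG10 + vehicle (adjusted exact p 0.0716) and by 0.28 (0.02 to 0.491) over CUG300 + vehicle (adjusted exact p 0.956).

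Tmem14a, a mitochondrial membrane protein, separated CUG10 + vehicle from both mice with 300 repeats. Its 183-nt extension, which holds a stop codon, had 25, 7 and 5 inclusion and 19, 27 and 22 skipping counts. PSI was 0.275 (0.167 to 0.421), 0.069 (0.027 to 0.149) and 0.061 (0.019 to 0.15). The differences from CUG10 + vehicle were -0.205 (-0.341 to -0.08) in CUG300 + vehicle and -0.213 (-0.349 to -0.084) in CUG300 + CWG-cPIP, with adjusted exact p of 0.572 and 0.317.

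Mospd2, an endoplasmic reticulum tether, had the largest difference between CUG300 + vehicle and CUG10 + vehicle among events at depth. Its 1389-nt extension, whose long form is not annotated, had 0 skipping counts in CUG10 + vehicle, 4 in CUG300 + vehicle and 0 in CUG300 + CWG-cPIP, with 56, 42 and 80 inclusion counts. PSI was 1.0 (0.426 to 1.0), 0.347 (0.162 to 0.671) and 1.0 (0.517 to 1.0), with intervals that overlap, and the difference was -0.653 (-0.835 to -0.029) with an adjusted exact p of 1.0. Lrch4, a leucine-rich repeat membrane protein, had an 817-nt extension in the same order, at 0.738, 0.45 and 0.865, on 2, 6 and 1 skipping counts.

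The following short coding extensions did not pass the exact test in any pair. Anapc5, a subunit of the anaphase-promoting complex, had a 39-nt extension at 0.531, 0.334 and 0.591, lowest in CUG300 + vehicle. Its difference for CWG-cPIP against CUG300 + vehicle was 0.258 (0.042 to 0.439). A nested 15-nt Anapc5 extension with the same skipping counts (22, 17 and 19) was at 0.131, 0.164 and 0.283, lowest in CUG10 + vehicle. Cops2, a subunit of the COP9 signalosome, had a 21-nt extension at 0.17, 0.238 and 0.474, and Cuedc2, a ubiquitin-binding protein, had nested extensions of 21 nt (0.156, 0.198 and 0.312) and 54 nt (0.375, 0.35 and 0.507). These 3 extensions were highest with CWG-cPIP, while a 33-nt Cuedc2 extension was at 0.978, 0.876 and 0.968, highest in CUG10 + vehicle. In the treated library the interval of the difference from CUG10 + vehicle left out 0 for Cops2 (0.304, 0.077 to 0.481). It also did so for the Cuedc2 extensions of 21 nt (0.156, 0.029 to 0.292) and 54 nt (0.132, 0.007 to 0.253). Against CUG300 + vehicle the 54-nt difference with CWG-cPIP was 0.156 (0.024 to 0.283). The 21-nt and 54-nt Cuedc2 events share their skipping counts (80, 60 and 36). Faim2, a neuronal inhibitor of Fas-mediated death, used its 36-nt extension at 0.868, 0.746 and 0.711, lower with CWG-cPIP than in CUG10 + vehicle by -0.157 (-0.252 to -0.05). The adjusted exact p of these genes was 0.396 or more in every pair.

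Surf1, an assembly factor of cytochrome c oxidase, had a 40-nt 5'UTR extension at 0.641, 0.453 and 0.661, and Ngfrap1 had a 41-nt coding extension at 0.549, 0.74 and 0.728. For Serf2, with 110 nt, the values were 0.335, 0.547 and 0.365. The differences of these 3 events had intervals that include 0 in all pairs. Of the chromatin list, Ncor1, a nuclear receptor corepressor, had a 168-nt extension at 0.627, 0.62 and 0.421, and Crem, a cAMP-responsive factor, a 397-nt extension at 0.711, 0.515 and 0.491, with intervals of all differences that include 0. With CWG-cPIP against CUG10 + vehicle, 2 of the list's 5 events at depth were higher and 2 lower by more than 0.15. The 5 events lie in 3 genes, none passed the exact test, and the share over all distant events of that pair was 19.4%. In the first and second comparisons the list had 1 event at depth each, past 0.15 (lower) in the first only. Hdac5, a class II histone deacetylase, had a 294-nt extension at 0.307, 0.446 and 0.356, with 5 counts in CUG300 + vehicle, and Mef2c, a neuronal transcription factor, had 4 counts there. The 2792-nt 3'UTR extension of Dtna, a dystrobrevin, stood at 0.487, 0.656 and 0.64 on 6, 1 and 6 skipping counts.

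**Figure D4:**
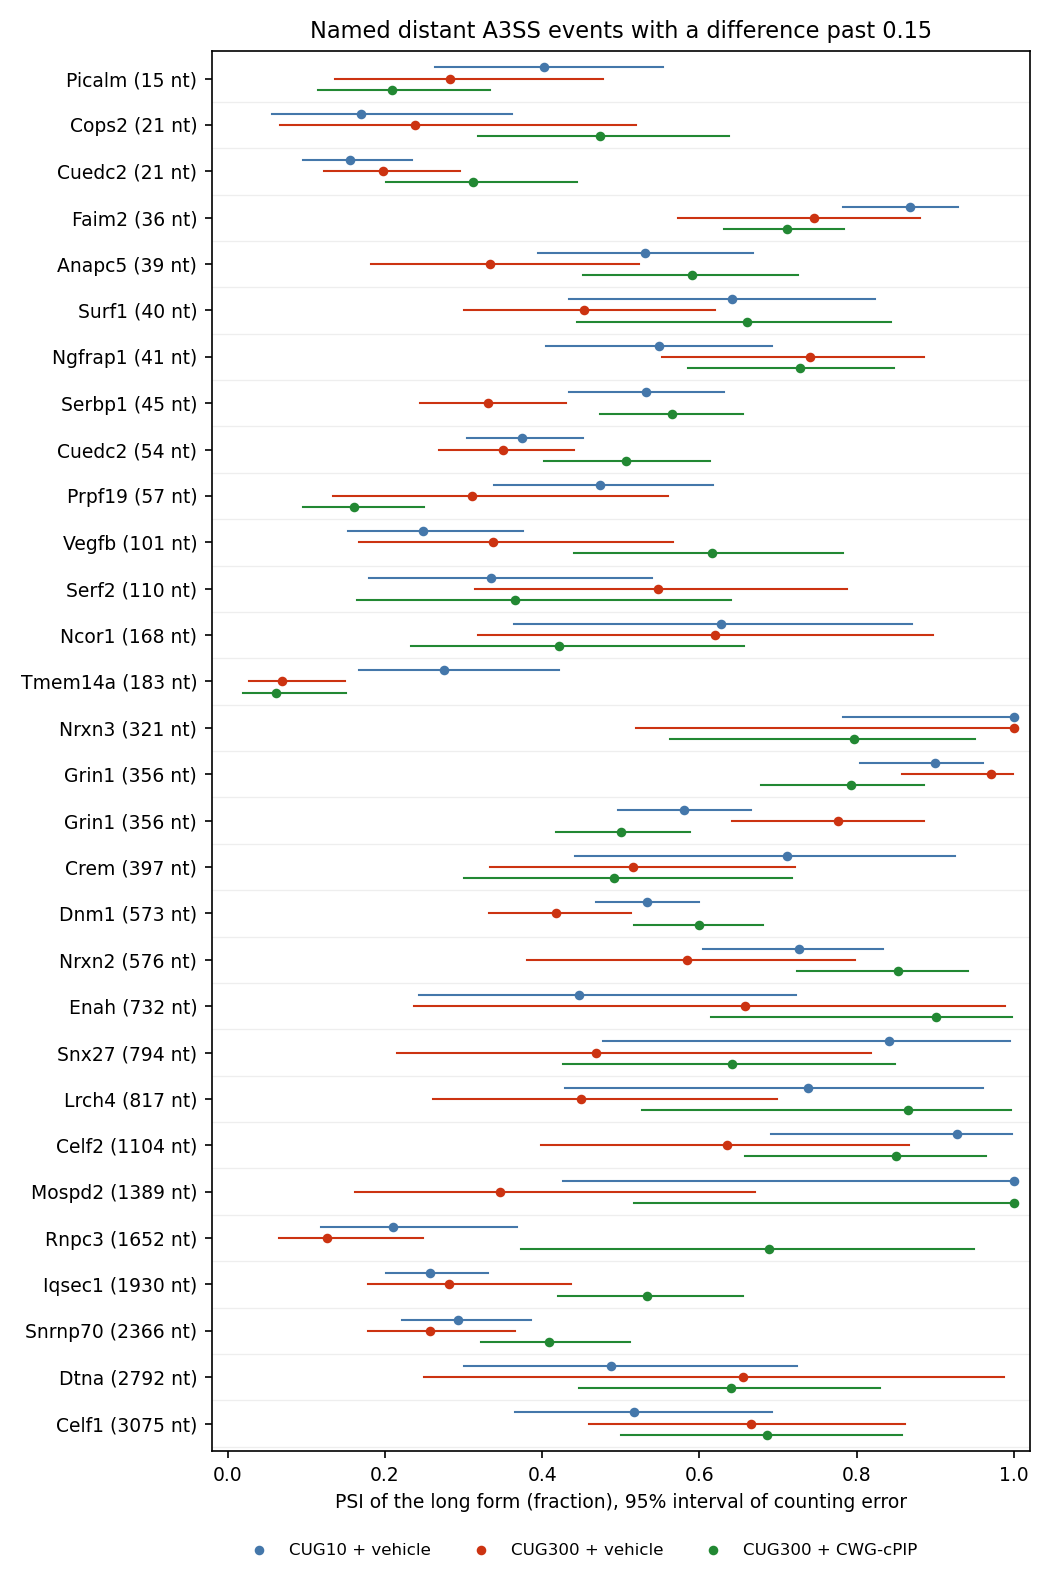
PSI of the long form (fraction) in the 30 named events of 28 genes with a difference above 0.15 in at least 1 pair at 20 counts, ordered by extension length in nt. Points show 1 mouse and lines its 95% Clopper-Pearson interval. The intervals of CUG300 + vehicle and CUG300 + CWG-cPIP do not overlap for Rnpc3 (0.127 against 0.688) and Serbp1 (0.331 against 0.565). They also do not overlap for the Dnm1 event drawn (0.417 against 0.599) and 1 of 2 Grin1 events (0.776 against 0.5).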

How the data were processed

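Paired reads of directional libraries from total RNA were processed by the authors against mm10, with Trim Galore 0.6.6 for trimming, STAR 2.7.9a for alignment and RSEM 1.3.3 around the aligner. DESeq2 1.36.0 served the authors for gene expression, which is not analysed here. The authors ran rMATS 4.1.2 on each pair of libraries and deposited, for each event, whole-number counts of inclusion and skipping reads per library, not normalised, and the PSI as a fraction. The deposited p-value, FDR and PSI difference columns hold the authors' own comparisons and were not used. The skipping form was 74 nt long in the deposited tables, while the methods give longer reads. This was not resolved. It scales the PSI of long extensions but leaves the exact p, which uses counts, as it is. A call also needs a PSI difference above 0.15, so which events are called can change with this length. Calls of the exact test without length normalisation were not counted.

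The 3 A3SS tables were joined by gene symbol, strand and coordinates. Shared counts were identical in 2013 of 2013 comparisons, and PSI was recomputed within 0.0005. Extensions were annotated with GENCODE M21, in which 407 of 415 symbols were found, and the downstream site was read from transcripts for 492 events and the upstream site for 176. Fisher's exact test, two-sided, with Benjamini-Hochberg adjustment over the A3SS events of a pair (scipy 1.17.1) was tested on simulated data, and a call needed an adjusted p below 0.05 and a PSI difference above 0.15. Counts by size needed 20 counts in each library. Reads carried no molecular identifiers, so intervals cover counting error only. The members and gene lists were chosen with earlier results of these data known. Named events were those called by the exact test, the 10 per pair with 20 counts and a difference above 0.15 whose interval lay farthest from 0 (1 event per gene), up to 4 of the deepest genes of each list, Grin1, and the 3 longest extensions at depth. Site scores were not computed, since no genome sequence was used here. An item that this rule takes in is not reported here by name.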

Additional observations from a re-analysis of the deposited data

How the results depend on the processing

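No paired analysis was possible because each group has 1 mouse, and no replicate could be left out. Values follow the order CUG300 + vehicle against CUG10 + vehicle, CUG300 + CWG-cPIP against CUG300 + vehicle, and CUG300 + CWG-cPIP against CUG10 + vehicle. The counts past 0.15 (19, 30 and 36) became 39, 50 and 57 at a minimum of 10 counts, 8, 16 and 19 at 50, and 168, 188 and 184 with no minimum. A size of 0.10 gave 39 and 68 for the pairs against CUG10 + vehicle, and a size of 0.20 gave 12, 18 and 17. Without length normalisation they were 7, 13 and 18. With at least 10 skipping counts over both libraries, an alternative chosen after seeing the data, they were 9, 16 and 21, and also 9, 16 and 21 when 10 inclusion counts were required as well. An interval without 0 in place of the adjusted exact test called 21, 30 and 24 events, against 0, 1 and 2. Testing only events with 20 counts called 3 between CUG300 + CWG-cPIP and CUG300 + vehicle. Without length normalisation the share of events with PSI above 0.5 was 74.1% in CUG10 + vehicle, 71.2% in CUG300 + vehicle and 75.5% in CUG300 + CWG-cPIP, and 89.8%, 89.8% and 93.9% above 250 nt. The other 30 values kept to within 1.5 times the main count or within their interval. The sequence score of both sites was not run, since it needs a genome sequence. Depth limits most events: 365 of 504 had under 20 counts in at least 1 library.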
